A study of Saccharomyces cerevisiae with 24 samples.

Results

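The mitochondrial protein import machinery of budding yeast was followed here through the transcripts of 36 nuclear genes, out of 6692 open reading frames (ORFs) in the count table. The members were chosen by name, as the subunits of the import complexes and their matrix partners. All 36 were found in the table and all 36 passed the filter on low counts in every comparison.

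Nearly all mitochondrial proteins are made in the cytosol and enter the organelle through these complexes. Precursors are recognized and pass the outer membrane in the TOM complex, after which the route divides. Barrel proteins are inserted by the SAM complex, small cysteine-rich proteins are trapped in the intermembrane space by Mia40 and Erv1, metabolite carriers are handed by the small Tim chaperones to the TIM22 complex, and precursors with a presequence go through the TIM23 complex and are pulled in by the PAM motor. In the matrix the processing peptidase removes the presequence, and the chaperonin of Hsp60 and Hsp10 folds the protein. The machinery is needed for life on any carbon source, and respiration on ethanol and glycerol calls for many more imported proteins than fermentation of glucose.

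The libraries are poly(A) RNA-seq of whole cells, and they divide into 3 strains and 2 media with 4 libraries in each of the 6 groups, 24 in all. WT is OCY1131, a MATa haploid made from BY4741, which carries deletions of LEU2, MET15 (MET17), URA3 and in HIS3. H3L126M and H3L126H are OCY1131 with 1 leucine of histone H3 changed to methionine or histidine in both HHT1 and HHT2 by CRISPR-Cas9, and each is represented by a single listed strain. YPD is the fermentative medium with glucose, YPEG is the oxidative medium with ethanol and glycerol, and cells were collected after a few doublings. The study asked whether this residue affects the copper reductase activity of the nucleosome. The study's methods call the 4 libraries of a group replicate experiments and say no more of the cultures, so the p-values measure the spread between these libraries.

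Total counts ran from 8570789 to 15577958 per library, and the lowest count of any member in any library was 30, for TIM9. Counts of the deleted URA3 and MET17 were 0 in every library and those of LEU2 at most 1. The a-cell receptor gene STE2 had 622 to 8792 counts, against 39 to 245 for the alpha-cell receptor gene STE3. The a-cell genes MFA1 and MFA2 had 150 to 2224 and 573 to 4414. The alpha-cell genes MF(ALPHA)1 and MF(ALPHA)2 had 0 to 381 and 29 to 118, so the ranges of MFA1 and MF(ALPHA)1 overlapped. No pair of replicates was as alike as counting error alone would make them, with a chi-square per degree of freedom of at least 3.92 over all genes. The WT libraries fell into pairs. In YPD that ratio was 3.97 between WT replicates 1 and 2 and 10 between 3 and 4, but 51.4 to 84.2 between the pairs, and in YPEG it was 11 and 21.7 within the pairs against 51.8 to 74.7 between them. The labels give no batch that would name this split. For the members, each comparison with WT was therefore also run with WT replicates 1 and 2 only and with 3 and 4 only. A member's call that was lost in either run is named beside its result. Calls of genes outside the machinery were not checked with the WT pairs. The H3L126M libraries were uneven too. In YPEG the chi-square ratio was 64.2 and 74.8 between replicate 2 and replicates 3 and 4, against 7.74 between 3 and 4. In YPD it reached 40.3. In H3L126H it was at most 6.1 in YPD and 29.1 in YPEG. The mutant libraries were left out 1 at a time and not run in pairs. In H3L126H the median change from WT of whole chromosomes lay furthest above 0 among nuclear chromosomes for II (0.42 on the log2 scale in YPD), III (0.21), V (0.23) and XVI (0.41), and 4 members lie on 3 of these chromosomes. More copies of a chromosome and more RNA from each copy cannot be told apart in these counts. In RNA from a whole culture, less RNA per cell and fewer cells that make it cannot be told apart.

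The chaperonin genes share a sequence element upstream, most of the machinery shares another downstream, and they are printed here because Hsf1 and Puf3, which bind such letters, are known regulators of mitochondrial chaperones and of mRNAs for mitochondrial proteins. Heat shock elements, which Hsf1 binds, are runs of TTC and GAA in alternation, and 3 such units in a row, each 2 bases apart from the next, were found on either strand of the 500 bases upstream of the start codon in 2 of 36 members (5.56%), HSP60 and HSP10, against 89 of 6007 coding genes (1.48%). The sites are printed with 12 bases on each side, on the strand of the gene, in capitals where the letters match.
HSP60, chrXII:665188-665224, minus strand: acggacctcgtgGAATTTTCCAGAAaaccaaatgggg
HSP10, chrXV:370980-371016, minus strand: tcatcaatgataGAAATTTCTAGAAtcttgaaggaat

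Puf3, an RNA-binding protein, recognizes TGTANATA after the stop codon. On the coding strand, these letters occurred within 200 bases after the stop codon in 23 of 36 members (63.9%), against 843 of 6007 genes (14%). The sites of the members whose transcripts rose most between the media, and that of MGE1, which fell, are printed with up to 6 bases on each side. They differ among these genes at the base left free in the motif, and PAM16, whose rise was next to that of TIM9, held none.
TIM9, chrV:117526-117545, plus strand: ttagcaTGTAAATAtaaaga
TIM10, chrVIII:115503-115522, minus strand: atatccTGTATATAcaagta
HSP60, chrXII:663212-663231, minus strand: ttatctTGTAAATAcaatgt
TIM23, chrXIV:663655-663674, plus strand: ggcgctTGTATATAgcattt
MIA40, chrXI:77082-77101, plus strand: gatacaTGTAAATAcagtaa
MGE1, chrXV:775345-775364, plus strand: tttactTGTATATAtttgta

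The CCAATNA element of the Hap complex, an activator of respiratory genes, was found upstream of 8 members (22.2%), among them MIA40, which held it at 2 places, against 24.3% of all genes. A match of letters is a description of the window and not a binding site. The machinery carried the Puf3 letters more often than the genome and the Hap letters about as often. All windows were read from the RefSeq copy of R64. In it no member overlaps another annotated gene, and every 50-base window of each coding sequence is unique, so none shares reads with a copy. The 684 ORFs of the count table without a match in RefSeq were not checked for overlap with the members.

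Levels within the machinery are given as CPM, the normalized count, which is scaled to library size with the TMM factors of all 24 libraries, and between genes as CPM per kb of coding length. In WT in YPD the highest level per kb was that of HSP10, the lid of the chaperonin, with 714 ± 42.5 (SD, n = 4), followed by SSC1, the Hsp70 of the import motor, with 592 ± 11.6 and TOM5, a small receptor-side subunit of TOM, with 561 ± 63.5. HSP60 (441 ± 37.5) and MGE1, the nucleotide exchange factor of Ssc1 (441 ± 5.77), came next and did not differ beyond their spread. Of the SAM complex, SAM35 stood at 87.8 ± 6.33, SAM50, its barrel subunit, at 47.4 ± 4.49, SAM37 at 31.7 ± 3.47 and MDM10, which it shares with the tether between endoplasmic reticulum and mitochondria, at 29.5 ± 3.87, and SAM37 and MDM10 overlapped within their SD. Subunits that work together were not level with each other. TIM9 stood lowest of all at 12.5 ± 2.67, while TIM10, its partner in the chaperone ring of the intermembrane space, stood at 427 ± 78.2, and in YPEG the pair stood at 31.8 ± 6.47 and 816 ± 44.3. TIM9 was counted 30 to 167 times in a library, so it is also the least precise member.

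**Figure D1:**
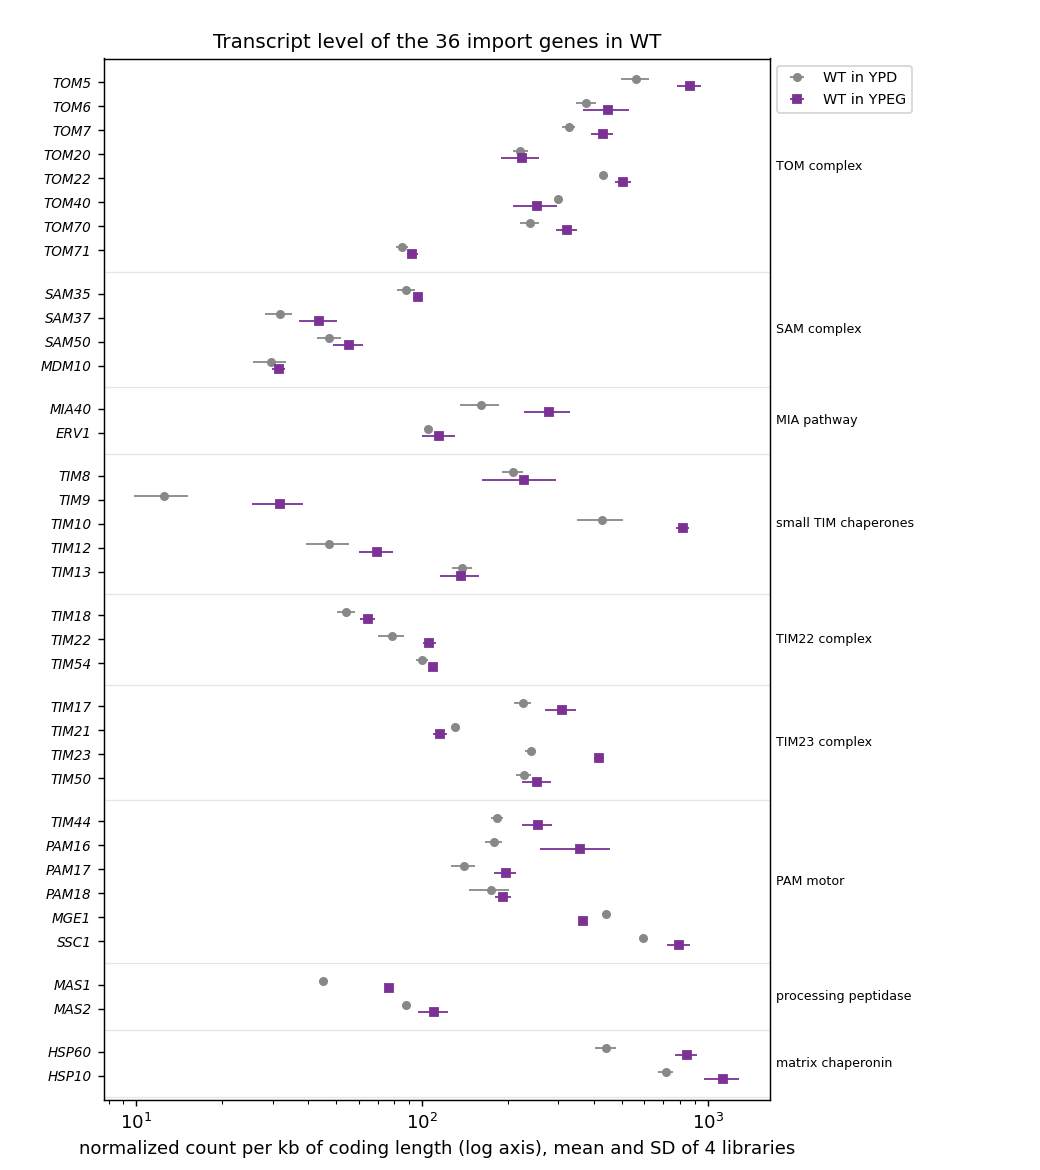
Normalized count per kb of coding length (log axis) of the 36 import genes in WT in YPD (gray circles) and in YPEG (violet squares), mean and SD of 4 libraries, arranged by complex. TIM9 is the lowest member in YPD at 12.5, and HSP10 the highest at 714 in YPD and 1130 in YPEG.

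The first comparison asks how the machinery differs between fermentative and oxidative growth in WT. Summed over the 36 members, the normalized count was 6150 to 6310 in the WT libraries in YPD and 8360 to 8630 in YPEG, with no overlap. HSP60 and SSC1, the members with the highest counts, weigh most in this sum. Their means were 757 and 1160 CPM in YPD and 1450 and 1560 in YPEG. Of the 36 members, 22 were higher in YPEG, 3 were lower and 11 did not pass, where 34.3% and 33.2% of the 6082 genes tested were called higher and lower. The median log2 fold change of the members was 0.36, against 0.02 for all genes. Changes were small: 2 members, TIM9 and PAM16, reached 2-fold higher and none 2-fold lower, where 13% and 8.76% of all genes did. In 21 members all YPEG libraries lay above all YPD libraries and in 2 below (27.6% and 27% of all genes). A call is an adjusted p below 0.05 in the quasi-likelihood test of edgeR, with Benjamini-Hochberg adjustment over all genes tested.

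In the matrix, where import ends, the chaperonin and the peptidase rose as whole complexes. HSP60 (YLR259C, chromosome XII 663284-665002) had 840, 775, 719 and 696 CPM in YPD and 1410, 1320, 1450 and 1630 in YPEG. Every YPEG library lay above every YPD library, with a log2 change of 0.94 (SE 0.11, adjusted p = 7.32e-08). HSP10 (YOR020C) rose by 0.67 (SE 0.10, adjusted p = 5.27e-06), from 217 to 245 up to 317 to 429 CPM. MAS1 and MAS2, the subunits of the peptidase, rose by 0.77 (SE 0.07, adjusted p = 6.64e-10) and 0.33 (SE 0.08, adjusted p = 0.000744). The call of MAS2 was lost with WT replicates 3 and 4 only, at 0.21.

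In the PAM motor, 4 of 6 members were higher and MGE1 was lower. PAM16 (YJL104W, chromosome X 227327-227776), the J-like partner that holds Pam18 at the channel, had 75.7, 76.8, 88.0 and 80.2 CPM in YPD and 118, 128, 208 and 189 in YPEG. The groups were apart, but WT replicates 3 and 4 in YPEG stood far above 1 and 2. The log2 fold change was 1.0 (SE 0.13, adjusted p = 3.49e-07), and it passed with either pair of WT libraries. SSC1, which drives the motor, had 1140, 1160, 1200 and 1160 CPM in YPD and 1730, 1600, 1390 and 1520 in YPEG, a log2 change of 0.42 (SE 0.10, adjusted p = 0.000616). TIM44, the anchor of Ssc1 at the channel, and PAM17 rose by 0.48 each, with adjusted p of 2.85e-06 and 0.00018. PAM18, the J protein that stimulates Ssc1, did not pass at 0.14. MGE1 (YOR232W, chromosome XV 774573-775259) had 305, 297, 304 and 304 CPM in YPD and 254, 247, 262 and 243 in YPEG. The groups did not overlap, and MGE1 fell by 0.27 (SE 0.06, adjusted p = 0.000202).

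The presequence channel TIM23 rose in its core. TIM23 (YNR017W, chromosome XIV 662913-663581), the channel subunit, had 153, 155, 170 and 163 CPM in YPD and 277, 293, 276 and 267 in YPEG. All 4 YPEG libraries lay well above the YPD libraries, with a log2 change of 0.79 (SE 0.06, adjusted p = 1.11e-10). TIM17, its partner in the membrane, rose by 0.45 (SE 0.08, adjusted p = 4.78e-05), and TIM50, the receptor, did not pass at 0.16. TIM21 (YGR033C), which links the channel to the TOM complex and to the respiratory chain, had 93.0, 94.3, 94.3 and 93.7 CPM in YPD and 79.0, 86.9, 88.4 and 80.3 in YPEG. The groups were apart, and TIM21 fell by 0.17 (SE 0.06, adjusted p = 0.0186). That call was lost in 9 of the 24 fits that left out 1 library, over which it ran from -0.18 to -0.13. It was also lost with WT replicates 1 and 2 only, at -0.17, and with 3 and 4 only, at -0.13.

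On the carrier route, 3 of 5 small Tim chaperones and 2 of 3 subunits of TIM22 were higher. TIM9 (YEL020W-A, chromosome V 117211-117474) had 3.01, 4.35, 2.87 and 2.95 CPM in YPD and 9.77, 9.64, 8.11 and 6.11 in YPEG. The groups did not overlap, and its log2 fold change of 1.35 (SE 0.18, adjusted p = 7.09e-07) was the largest of the machinery. TIM10 (YHR005C-A, chromosome VIII 115620-115901) had 106, 98.5, 146 and 132 CPM in YPD and 223, 248, 229 and 221 in YPEG. WT replicates 3 and 4 were the higher pair in YPD, and TIM10 rose by 0.93 (SE 0.10, adjusted p = 6.76e-09). TIM12, the small Tim bound to the TIM22 complex, rose by 0.55 (SE 0.13, adjusted p = 0.000969), a call lost with WT replicates 3 and 4 only, at 0.23. TIM8 and TIM13, which form the other ring, did not pass, with 0.13 and -0.01. TIM22, the carrier channel, rose by 0.44 (SE 0.07, adjusted p = 1.12e-05) and TIM18 by 0.25 (SE 0.11, adjusted p = 0.0413), the latter lost without WT replicate 1 in YPD or 1, 2 or 3 in YPEG and with WT replicates 3 and 4 only, at 0.17.

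In the intermembrane space, MIA40 (YKL195W, chromosome XI 75821-77032), the oxidoreductase that receives cysteine-rich precursors, had 225, 218, 169 and 168 CPM in YPD and 288, 283, 369 and 409 in YPEG. WT replicates 1 and 2 were the higher pair in YPD and the lower pair in YPEG, and the media still did not overlap. MIA40 rose by 0.79 (SE 0.11, adjusted p = 6.55e-07), while ERV1, the oxidase that regenerates Mia40, did not pass at 0.13.

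At the outer membrane, 4 of 8 TOM subunits and 2 of 4 SAM subunits were higher. TOM5 rose by 0.62 (SE 0.09, adjusted p = 7.33e-07), TOM7, a small subunit of the complex, by 0.39 and TOM22, its central receptor, by 0.23 (SE 0.06, adjusted p = 0.00201, lost with WT replicates 1 and 2 only, at 0.17). TOM70 (YNL121C), the receptor for carriers, and TOM71 (YHR117W), its paralog, moved unequally. TOM70 had 420, 409, 461 and 482 CPM in YPD and 546, 561, 653 and 623 in YPEG, a log2 change of 0.43 (SE 0.08, adjusted p = 2.36e-05). TOM71 had 155, 161, 166 and 173 CPM in YPD and 167, 179, 179 and 185 in YPEG, 0.12 on the log2 scale, which did not pass. The difference between the paralogs was not tested. TOM40 (YMR203W), the channel of the outer membrane, had 350, 340, 346 and 357 CPM in YPD and 351, 322, 237 and 269 in YPEG. The groups overlapped, since WT replicates 1 and 2 in YPEG stood near the YPD level and 3 and 4 below it. The log2 fold change was -0.24 (SE 0.10, adjusted p = 0.0427), the call was lost in 13 of the 24 fits without 1 library, and with WT replicates 1 and 2 only the value was -0.03. SAM37 rose by 0.46 (SE 0.11, adjusted p = 0.000917, lost with WT replicates 3 and 4 only, at 0.21) and SAM50 by 0.23 (SE 0.09, adjusted p = 0.0206), where the groups overlapped and the call was lost without WT replicates 3 or 4 in YPEG and with WT replicates 1 and 2 only, at 0.10.

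Members with the Puf3 letters had a median log2 fold change of 0.44 and 14 of 23 were higher, and members without had 0.23 and 8 of 13. Over all genes tested, 52.1% of those with the letters and 32% of those without were higher. Within the machinery the share that rose was about the same in both groups.

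The same comparison in the mutants rests on other libraries. In H3L126M, 27 members were higher in YPEG and 2 lower, against 33.4% and 33.9% of all genes, with a median of 0.37. In H3L126H, 22 were higher and 1 lower, against 36.6% and 31%, with a median of 0.28. Higher in all 3 strains were 16 members, where 23.2% of all genes were: TOM5, TOM7 and TOM70 of TOM, MIA40, TIM9, TIM10 and TIM22 on the carrier route, TIM17 and TIM23 of the presequence channel, TIM44, PAM16 and PAM17 of the motor, both peptidase subunits and both chaperonin subunits. Another 8 were higher in 2 strains and 7 in 1, where 10.4% and 14% of all genes were. TOM40, TOM71, TIM13, PAM18 and MGE1 were higher in none, as were 52.5% of all genes. In H3L126H the calls of PAM16 (0.33, adjusted p = 0.0279), TIM17 (0.20, adjusted p = 0.0374) and TOM70 (0.18, adjusted p = 0.0412) were lost with DESeq2 and in 6, 13 and 12 of the 24 fits without 1 library.

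**Figure D2:**
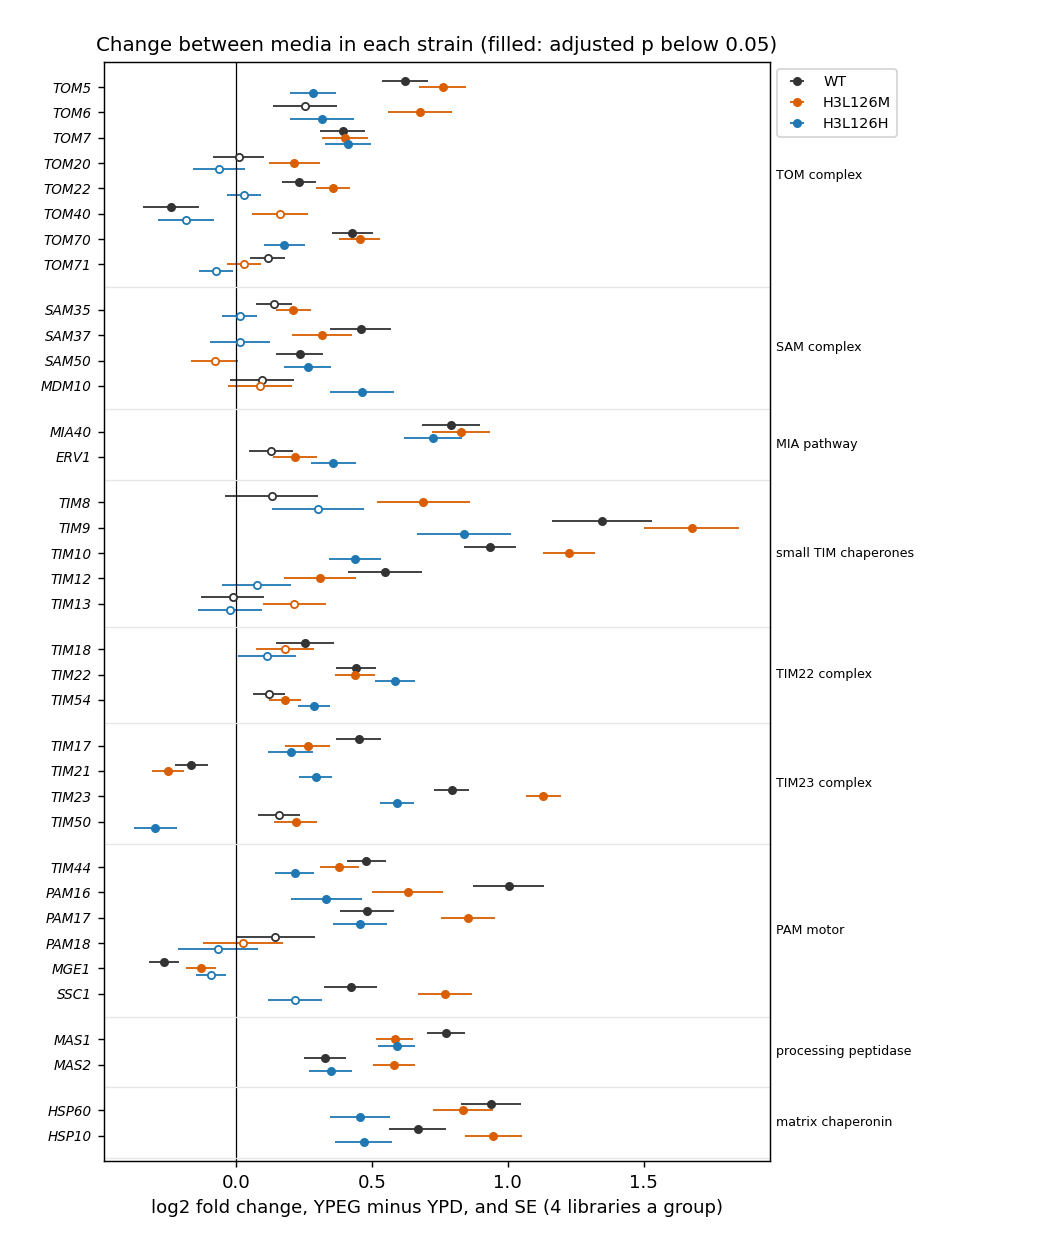
Log2 fold change of YPEG against YPD for each of the 36 members in WT (black), H3L126M (orange) and H3L126H (blue), with bars of 1 SE and filled points where the adjusted p was below 0.05. The chaperonin and peptidase subunits rose in all 3 strains, while TIM21 fell in WT and H3L126M and rose in H3L126H.

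Whether a strain responded to the medium differently from WT was tested by the interaction of medium and strain. In H3L126M, 2 members passed, both with a larger change, where 11.1% of all genes had a larger and 13.6% a smaller one. TIM23 rose more in H3L126M, which had 137, 151, 154 and 157 CPM in YPD and 335, 345, 330 and 304 in YPEG. The difference in log2 fold change was 0.34 (SE 0.09, adjusted p = 0.00969), and it held in all 24 fits without 1 library but not with WT replicates 1 and 2 only, at 0.27. TOM40 had 334, 362, 328 and 282 CPM in YPD and 368, 299, 397 and 396 in YPEG in H3L126M, where the groups overlapped. Its interaction of 0.40 (SE 0.15, adjusted p = 0.0464) was lost in 17 of the 24 fits and with WT replicates 1 and 2 only, at 0.22. The count of 2 is not firm. It was 8 without WT replicate 1 in YPEG, 6 without WT replicate 2 and 7 without H3L126M replicate 2, and 13 with WT replicates 3 and 4 only. It was 1 without H3L126M replicates 1 or 4 in YPD, any H3L126H replicate in YPD, WT replicates 3 or 4 in YPEG, H3L126M replicates 1, 3 or 4 in YPEG or H3L126H replicate 1 in YPEG.

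In H3L126H, 7 members passed, 6 with a smaller and 1 with a larger value, where 9.27% and 10.1% of all genes passed. The median interaction of the members was -0.16, against 0.02 over all genes. With chromosome medians removed, 5 members passed, 4 with a smaller and 1 with a larger value, and 4 of the 5 were among these 7. The median was then -0.11, against 0.04 over all genes. The rise of PAM16 was smaller in H3L126H, from 76.4, 87.8, 75 and 78.6 CPM in YPD to 101, 98.8, 98.2 and 102 in YPEG, by 0.67 on the log2 scale (-0.67, SE 0.18, adjusted p = 0.014). With WT replicates 1 and 2 only it was -0.36 and did not pass, and with 3 and 4 only it was -0.97 and passed. TIM10 went from 132, 134, 131 and 158 CPM to 191, 197, 183 and 179 in H3L126H, an interaction of -0.50 (SE 0.13, adjusted p = 0.0131) that passed with either pair of WT libraries. HSP60 went from 943, 881, 835 and 926 to 1230, 1100, 1300 and 1280 CPM, an interaction of -0.48 (SE 0.15, adjusted p = 0.0324), lost in 6 of the 24 fits without 1 library and with WT replicates 1 and 2 only, at -0.31.

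TIM21 and TIM50, neighbors in the TIM23 complex, crossed over in H3L126H. TIM21 had 66.2, 61.5, 62.6 and 62.8 CPM in YPD and 79.3, 79.2, 76.5 and 75.3 in YPEG, and so rose by 0.29 (SE 0.06, adjusted p = 0.000173) where it fell in WT. The interaction was 0.46 (SE 0.09, adjusted p = 0.00101), and it passed without any 1 library and with either pair of WT libraries. TIM50 (YPL063W, chromosome XVI), chosen for mention after its values were seen, had 368, 376, 352 and 348 CPM in YPD and 270, 304, 311 and 289 in YPEG. It fell by 0.30 (SE 0.08, adjusted p = 0.00176), the one member called lower in this strain, with an interaction of -0.46 (SE 0.11, adjusted p = 0.00691). SAM37 (-0.44, adjusted p = 0.0483) and TOM5 (-0.34, adjusted p = 0.0479) also passed, and both calls were lost in 13 or more of the 24 fits without 1 library and with WT replicates 3 and 4 only, at -0.24 and -0.18. The count of 7 rose to 13 without WT replicate 3 or H3L126M replicates 1, 2 or 3 in YPD and to 14 without WT replicate 4 in YPD, and fell to 4 without H3L126H replicate 4 in YPD or replicates 1 or 2 in YPEG.

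**Figure D3:**
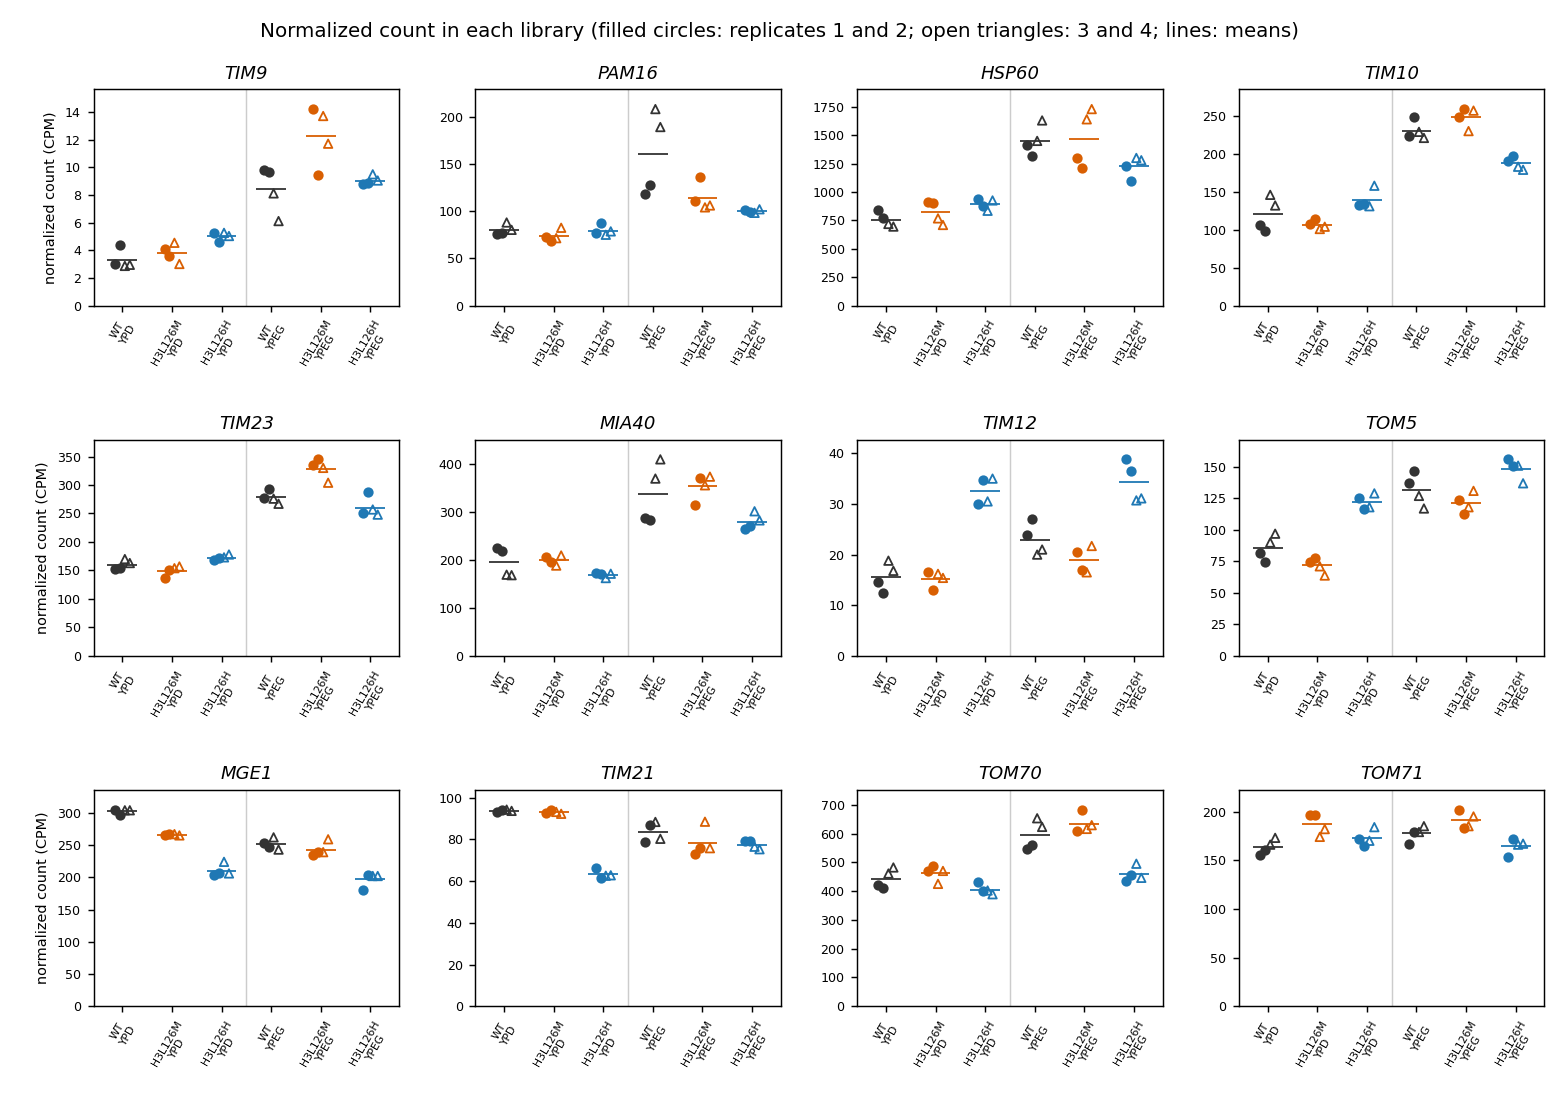
Normalized count (CPM) of 12 members in each of the 24 libraries, with lines at the mean of 4 libraries, filled circles for replicates 1 and 2 and open triangles for 3 and 4 (WT black, H3L126M orange, H3L126H blue). WT replicates 3 and 4 in YPEG stand at 208 and 189 for PAM16, above every other library, and TIM21 in H3L126H in YPD stands at 61.5 to 66.2, below all other groups.

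The strains were then compared within each medium. Both mutants were compared with the same WT libraries, so the values of the mutants beside each other are not independent. In YPD, 1 member was higher and 3 lower in H3L126M (median -0.07), where 7.83% and 6.74% of all genes were. ERV1 (YGR029W, chromosome VII 543553-544205) had 45.4, 47.3, 54.1 and 45.7 CPM in H3L126M and 60.6, 60.6, 59.4 and 59.0 in WT. The groups were apart, and ERV1 was lower by 0.29 on the log2 scale (-0.29, SE 0.07, adjusted p = 0.0135). MGE1 had 265, 267, 267 and 265 CPM in H3L126M (-0.16, SE 0.05, adjusted p = 0.0359). It lay below all WT libraries, and its call was lost in 8 of the 12 fits without 1 library.

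PAM18 had 71.7, 74.6, 69.5 and 68.7 CPM in H3L126M and 74.9, 79.4, 92 and 107 in WT, a log2 change of -0.29 (SE 0.09, adjusted p = 0.0494). WT replicates 1 and 2 stood close to the mutant, and with these only the value was -0.11 and did not pass. TOM71 had 196, 197, 174 and 182 CPM in H3L126M, above WT (0.22, SE 0.06, adjusted p = 0.0284), a call lost without WT replicates 1, 2 or 3 or H3L126M replicates 1 or 2, and with WT replicates 3 and 4 only, at 0.17. With only the libraries compared in the fit, none of the 4 members passed, ERV1 included at -0.30, and 10 members had an unadjusted p below 0.05 in edgeR. The count of 4 fell to 1 without WT replicate 3 or H3L126M replicates 1 or 2, and to 2 without WT replicate 1 or H3L126H replicates 2 or 4.

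In YPD, 8 members were higher and 5 lower in H3L126H (median -0.05), where 24.5% and 20.1% of all genes were. TIM12 (YBR091C, chromosome II 427155-427484) had 29.9, 34.8, 30.5 and 35.0 CPM in H3L126H and 14.6, 12.4, 18.8 and 16.8 in WT. The groups were far apart, with a log2 change of 1.1 (SE 0.13, adjusted p = 2.4e-05), the largest difference of a mutant from WT among the members. TIM9 had 5.28, 4.58, 5.26 and 5.03 CPM (0.66, SE 0.19, adjusted p = 0.0137), all above the WT libraries, though with WT replicates 1 and 2 only it was 0.49 and did not pass. TOM5 (YPR133W-A, chromosome XVI 797557-797709) had 125, 117, 118 and 129 CPM in H3L126H and 81.5, 74.7, 90.0 and 97.0 in WT, and was higher by 0.56 (SE 0.08, adjusted p = 0.000137).

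These 3 members and TIM50 (0.20, adjusted p = 0.011) lie on chromosomes whose genes as a whole were higher in H3L126H. With the median of each chromosome removed, TIM12 was still higher at 0.69 (adjusted p = 0.00133), TOM5 and TIM9 no longer passed at 0.15 and 0.43, and TIM50 was lower at -0.21 (adjusted p = 0.0122). With WT replicates 3 and 4 only, TIM50 was 0.13 and did not pass. SAM37 (0.45, SE 0.09, adjusted p = 0.00181), the accessory subunit of SAM, lies on chromosome XIII with a median near 0 and was higher either way. HSP60 (0.29), HSP10 (0.23) and TIM23 (0.15) were also higher, with adjusted p of 0.0192, 0.0404 and 0.0428, and the HSP60 and TIM23 libraries overlapped those of WT. The HSP60 call was lost without WT replicate 3 or H3L126H replicates 1 or 4, the HSP10 call without WT replicates 3 or 4 or H3L126H replicates 1, 2 or 4, and the TIM23 call in 10 of the 12 fits without 1 library. With WT replicates 1 and 2 only HSP60 and HSP10 did not pass, at 0.19 and 0.15, and with 3 and 4 only TIM23 did not, at 0.10.

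Among the members that were lower in H3L126H in YPD, TIM21 (-0.52, SE 0.05, adjusted p = 6.47e-06) and MGE1 (-0.48, SE 0.05, adjusted p = 8.32e-06) stood furthest from WT. TIM21 had 61.5 to 66.2 CPM against 93.0 to 94.3 in WT. MGE1 had 204, 207, 224 and 206 CPM against 297 to 305 in WT. Both remained lower with chromosome medians removed, at -0.35 and -0.37, and with either pair of WT libraries. TIM22 (-0.36), TIM54, another subunit of the carrier complex (-0.25), and ERV1 (-0.28) were lower too. Of these TIM54 passed with chromosome medians removed, and TIM22 was -0.23 and did not pass with WT replicates 1 and 2 only.

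**Figure D4:**
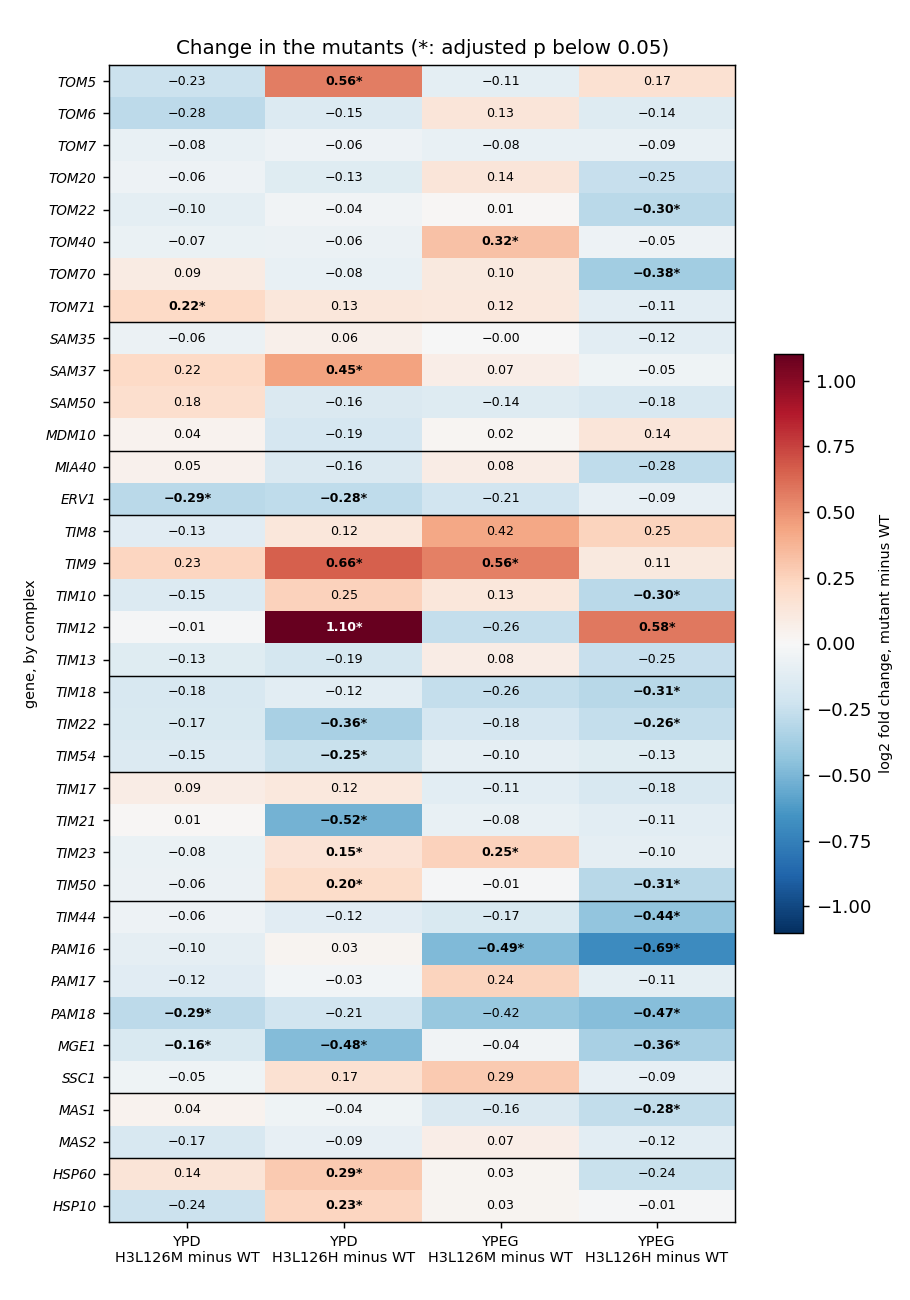
Log2 fold change of each mutant against WT in YPD and YPEG for the 36 members, by complex (red higher, blue lower), with an asterisk where the adjusted p was below 0.05. H3L126M has few marks in either medium, and H3L126H has 11 marks of lower members in YPEG, 4 of them in the PAM motor.

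In YPEG, 3 members were higher and 1 lower in H3L126M (median 0.02), where 17.1% and 19% of all genes were. TIM9 had 14.2, 9.41, 13.7 and 11.7 CPM in H3L126M, overlapping the WT range of 6.11 to 9.77 by 1 library, with a log2 change of 0.56 (SE 0.17, adjusted p = 0.0211). The call was lost without WT replicates 3 or 4 or H3L126M replicates 1 or 3, and with WT replicates 1 and 2 only it was 0.34. PAM16 had 111, 136, 104 and 106 CPM, within reach of WT replicates 1 and 2 at 118 and 128 and far below 3 and 4. Its value of -0.49 (SE 0.16, adjusted p = 0.0251) fell to -0.10 with WT replicates 1 and 2 only, which did not pass. TOM40 (0.32, SE 0.12, adjusted p = 0.0475) was 0.13 with WT replicates 1 and 2 only and lost its call in 9 of the 12 fits without 1 library. TIM23 (0.25, SE 0.08, adjusted p = 0.0192) lay above WT in all 4 libraries and lost its call without H3L126M replicate 1 and with WT replicates 1 and 2 only, at 0.21. The count of 4 was 0 without H3L126M replicate 1, 1 without WT replicate 3, 2 without WT replicate 4, 7 without H3L126M replicate 2 and 8 without WT replicate 1. With WT replicates 1 and 2 only it was 1, with 3 and 4 only it was 12.

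In YPEG, 11 members were lower and 1 higher in H3L126H, where 17.7% and 18.7% of all genes were. The median of the members was -0.13, against -0.004 for all genes, and 31 of the 36 values lay below 0. Some whole chromosomes also lay below 0 in H3L126H in YPEG, with medians of -0.15 for IV and -0.14 for VII and XV. With chromosome medians removed, the median of the members was -0.10, against 0.0025 for all genes. The summed normalized count was 7230 to 7650 in H3L126H, below all WT libraries. In the PAM motor 4 of 6 members were lower and all 6 values lay below 0, with a median of -0.40. PAM16, with the H3L126H libraries at 98.2 to 102 CPM, was lower by 0.69 on the log2 scale (-0.69, SE 0.16, adjusted p = 0.0038). With WT replicates 1 and 2 only it was -0.29 and did not pass. TIM44 had 230, 248, 251 and 248 CPM in H3L126H and 286, 309, 369 and 356 in WT. The groups were apart, and the log2 fold change was -0.44 (SE 0.09, adjusted p = 0.00216). MGE1 had 181, 203, 202 and 202 CPM, below all WT libraries (-0.36, SE 0.07, adjusted p = 0.00197). PAM18 had 76.1, 67.0, 68.1 and 71.2 CPM in H3L126H and 95, 106, 91.3 and 97.8 in WT (-0.47, SE 0.17, adjusted p = 0.0409). The call of PAM18 was lost in 8 of the 12 fits without 1 library. It was also lost with WT replicates 1 and 2 only, at -0.504, and with 3 and 4 only, at -0.435.

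At the outer membrane TOM70 had 435, 456, 495 and 446 CPM in H3L126H in YPEG, below all WT libraries, with a log2 change of -0.38 (SE 0.09, adjusted p = 0.00512). TOM71 had 153, 172, 166 and 167 CPM and did not pass at -0.11. TOM22 (-0.30), TIM10 (-0.30), TIM18 (-0.31), TIM22 (-0.26), TIM50 (-0.31) and MAS1 (-0.28) completed the lower members, with adjusted p between 0.00565 and 0.047. Of these, the call of TIM18 was lost in 9 of the 12 fits without 1 library. It was also lost with WT replicates 1 and 2 only, at -0.34, and with 3 and 4 only, at -0.28. The call of TIM50 was lost without WT replicates 3 or 4 or H3L126H replicates 1 or 4 and with WT replicates 1 and 2 only, at -0.16. TIM12, at 38.8, 36.6, 30.7 and 31.1 CPM, was the higher member (0.58, SE 0.13, adjusted p = 0.00326).

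With chromosome medians removed, 6 of the 12 calls in YPEG remained, all lower: PAM16, TIM50 (-0.68, adjusted p = 0.000475), TIM44, TOM70, TIM10 and MGE1. TIM12 was then 0.17 and did not pass. TIM44, TOM70, TIM10 and MGE1 also passed with either pair of WT libraries.

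**Figure D5:**
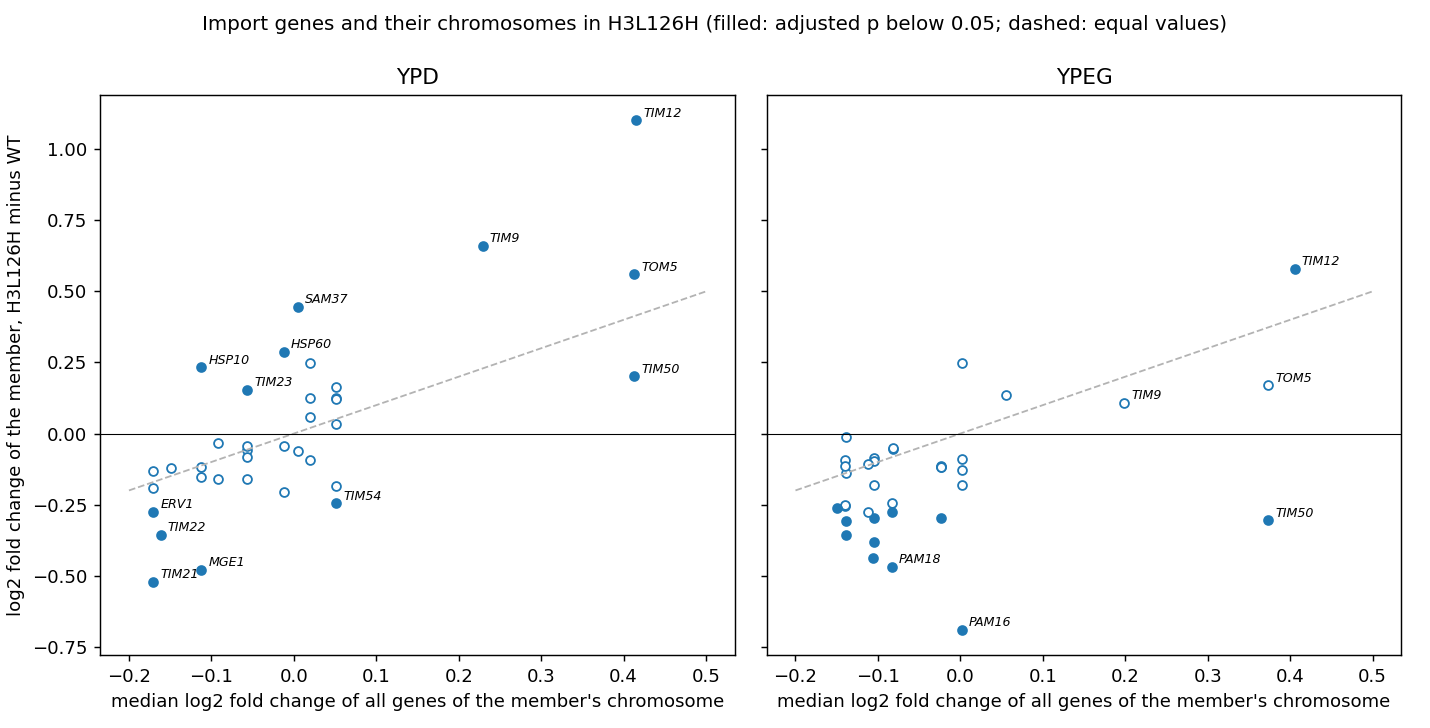
Log2 fold change of each member in H3L126H against WT (vertical) and the median log2 fold change of all genes of its chromosome (horizontal) in YPD and YPEG, with filled points where the adjusted p was below 0.05 and a dashed line of equal values. TIM12, TOM5 and TIM50 lie on the chromosomes at about 0.4, TIM9 at about 0.2, and TIM50 lies below the line in both media.

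The mutants were also compared with each other. In YPEG 14 members were higher and 2 lower in H3L126M than in H3L126H (19.4% and 21.2% of all genes, respectively), with a median of 0.20. They included 5 of 8 TOM subunits, led by TOM70 at 0.49 (SE 0.09, adjusted p = 0.000748), and 4 of 6 in the PAM motor, among them SSC1 at 0.37 (SE 0.11, adjusted p = 0.0166, lost without H3L126M replicates 3 or 4 or H3L126H replicate 2). TIM10 (0.42, adjusted p = 0.000369) and TIM23 (0.35, adjusted p = 0.00229) were higher as well, and TIM12 (-0.84) and TOM5 (-0.28), both on the chromosomes that were higher in H3L126H, were the lower members. The count of 16 was 10 without H3L126M replicate 3 or H3L126H replicate 1, and 10 with chromosome medians removed, where the median was 0.16. In YPD, 4 members were higher and 6 lower, where 16.2% and 19.4% of all genes were, led by TIM12 (-1.11), TOM5 (-0.79) and TIM21 (0.53).

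The genes that the machinery serves and its helpers were counted in WT between the media as a setting for these values, where 34.3% of all genes were higher and 33.2% lower. A chosen list of 11 Mia40 clients, which leaves out the members of the machinery, was higher throughout, with a median log2 fold change of 1.67. In this list COX12, a cytochrome oxidase subunit, rose from 33.7 to 46.5 up to 289 to 422 CPM (3.12, adjusted p = 1.1e-15). COX17, the copper chaperone of the oxidase, rose by 2.44 and CMC2 by 2.13. Of 20 other import and sorting factors, 16 were higher and 2 lower (median 0.59), led by OM14 (3.75), SOM1 (1.98), a subunit of the inner membrane peptidase, and MBA1 (1.69), a receptor for mitochondrial ribosomes. Other matrix chaperones gave 3 of 5 higher, with MDJ2 at 1.24, and the other subunits of the tether 2 of 3, with MDM34 at 1.34.

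Of 21 carriers, 12 were higher and 5 lower, beside the same shares of all genes. SFC1, which exchanges succinate for fumarate, had 1.31 to 3.44 CPM in YPD and 842 to 978 in YPEG, CRC1, the carnitine carrier, rose by 5.48 and ODC1 by 4.23. AAC3, an ADP/ATP carrier known from growth without oxygen, fell by 4.16, OAC1 by 2.26 and DIC1 by 1.36. Of 8 cytosolic chaperones that guide precursors, 2 were higher and 5 lower, and SSA2, an Hsp70, went from 4490 to 5650 down to 549 to 775 CPM. YDJ1 fell by 1.33 and SIS1, another J protein, by 1.31. In 4 of the 8 all YPEG libraries lay below all YPD libraries and in 0 above (27% and 27.6% of all genes). HSP82 had 964, 899, 379 and 252 CPM in YPD and 308, 213, 257 and 437 in YPEG. WT replicates 3 and 4 in YPD lay within its YPEG range, and the chaperone calls were not checked with the WT pairs. In H3L126H in YPEG, where 11 import genes were lower than in WT, 4 of these 8 chaperones were higher and none lower (18.7% and 17.7% of all genes), HSP82 by 1.52 (adjusted p = 0.000848) and SSA3 by 1.39 (adjusted p = 4.52e-05). HSP82 lies on chromosome XVI and SSA3 on II, whose medians in H3L126H in YPEG were 0.37 and 0.41. SSA4 lies on chromosome V, with a median of 0.20. It had 344, 194, 203 and 238 CPM in H3L126H in YPEG and 105, 80, 92.9 and 105 in WT. The part of these chaperones in the lower import transcripts was not tested.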

How the data were processed

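The authors deposited raw counts per ORF for the 24 libraries. Their methods describe strand-specific alignment with HISAT2 and counting with featureCounts, and the submitters' processing notes name the build sacCer3 and DESeq2 (versions not given in the sources used here). Their normalized table was not used here.

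Genes were filtered (filterByExpr, minimum count 10), scaled with TMM and fitted in edgeR 4.0.16 (R 4.3.3, quasi-likelihood F test), with Benjamini-Hochberg adjustment over all genes and calls below 0.05. Media and interactions were fitted on 24 libraries, strains within a medium on the libraries of that medium. Totals per library, given with the report, set the precision, which is lowest for rare transcripts such as TIM9. For the chromosome comparison, the median log2 fold change of all genes of a chromosome was subtracted. Sequences and motif matches were read from RefSeq R64 with Python 3.11.15 and pandas 2.3.3. The fit was tested on simulated data.

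The members and lists were chosen with earlier results of these data known. By rule, values per library were given for the 6 largest rises and falls among members called in WT between the media, the 3 largest called changes of each mutant against WT, up to 4 called interactions each, TOM70 and TOM71, and HSP60, SSC1, TOM40 and TIM23. Of other genes, up to 3 each way per list were named where called in WT between the media with a log2 change of at least 1. TIM50, TIM44, HSP82, SSA3 and SSA4 were added after their values were seen. Alternatives were DESeq2 1.42.0, its size factors in edgeR, no filter or a mean count of at least 100, the replicate number as a block, only the libraries compared, chromosome medians removed, each library left out and, chosen after seeing the data, the WT libraries in pairs. The replicate numbers were not taken as pairs in the main fit. Deviations from group means of libraries with the same number and medium correlated from -0.35 to 0.28. Their median was 0.01, against -0.002 for different numbers in the same medium.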

Additional observations from a re-analysis of the deposited data

Results flagged for a closer look

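In 11 of 216 groups of 4 libraries, 1 library stood apart from the other 3 by Dixon's criterion, where chance flags about 1 in 20 groups. In WT in YPD these were TIM9 in replicate 2, at 4.35 CPM above 2.87 to 3.01, and MGE1 in replicate 2, at 297 CPM below 304 to 305. In WT in YPEG, SAM35, a SAM subunit on the cytosolic side, stood at 92.7 CPM in replicate 3 below 96.5 to 97.1, and TIM18 at 34.1 CPM in replicate 4 below 38.1 to 38.8. In H3L126M in YPEG, MAS2 stood at 148 CPM in replicate 2 below 170 to 173. In H3L126H in YPD, MIA40 stood at 162 CPM in replicate 3 below 171 to 172, TIM10 at 158 CPM in replicate 4 above 131 to 134 and MGE1 at 224 CPM in replicate 3 above 204 to 207. In H3L126H in YPEG, TIM13 stood at 42.6 CPM in replicate 4 above 34.1 to 35.2, TIM44 at 230 CPM in replicate 1 below 248 to 251 and MGE1 at 181 CPM in replicate 1 below 202 to 203.

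The change between the media differed between a mutant and WT by the interaction test for 9 values. In H3L126M the log2 change was larger by 0.40 for TOM40 and by 0.34 for TIM23. In H3L126H it was larger by 0.46 for TIM21. The difference was -0.67 for PAM16, -0.50 for TIM10, -0.48 for HSP60, -0.46 for TIM50, -0.44 for SAM37 and -0.34 for TOM5.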

How the results depend on the processing

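The main counts of members called were 25, 29 and 23 between the media in WT, H3L126M and H3L126H, 4, 13 and 10 in YPD and 4, 12 and 16 in YPEG for H3L126M against WT, H3L126H against WT and H3L126M against H3L126H, and 2 and 7 for the interactions with H3L126M and H3L126H. In YPD, the count of H3L126M against WT was 7 with DESeq2, 7 with WT replicates 3 and 4 only, and 0 with only the libraries compared, where edgeR gave 10 members an unadjusted p below 0.05. In YPEG it was 1 with WT replicates 1 and 2 only, 12 with 3 and 4 only and 1 with only the libraries compared. The interaction with H3L126M counted 4 with DESeq2, 13 with WT replicates 3 and 4 only and 1 with only the libraries compared, and that with H3L126H 12 with DESeq2. With chromosome medians removed, 6 members of H3L126H against WT and 10 of H3L126M against H3L126H were called in YPEG.

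Without 1 library at a time, the counts ran from 22 to 28, 25 to 30 and 19 to 24 between the media, from 1 to 4, 10 to 14 and 9 to 10 in YPD, from 0 to 8, 9 to 12 and 10 to 17 in YPEG, and from 1 to 8 and 4 to 14 for the interactions, in the same order. The 0, without H3L126M replicate 1 in YPEG, stood beside 6 members with an unadjusted p below 0.05 in edgeR.

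With the replicate number as a block, the count of H3L126M against WT in YPD was 1, and the other counts stayed within 1.5 times. The sources do not say whether libraries with the same number were grown together. The lower count under the block can therefore not be read as a measure of a weaker effect.

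Removing chromosome medians turned TIM50 in H3L126H in YPD to -0.21 against WT, to 0.15 for H3L126M against H3L126H, and TOM5 in YPEG to 0.10 for H3L126M against H3L126H. The interaction of MIA40, not called with all WT libraries, was 0.35 with H3L126H when WT replicates 1 and 2 only were used and -0.39 with H3L126M when 3 and 4 only were. The cause was not tested. Of 396 values of single members, 375 kept direction and side of the threshold with DESeq2, 383 with its size factors, 389 without a filter, 383 under the block and 373 with only the libraries compared, as did 375 of 388 with a mean count of at least 100, 214 and 204 of 252 with the WT pairs and 190 of 216 with chromosome medians removed. Depth limits TIM9 most, with 30 to 167 counts per library.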
